A study of Homo sapiens with 101 samples.

Results

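EPH receptors and ephrins were followed across 9 treatments in the colorectal cancer cell lines SW480 and SW620. The 10 genes are the receptors EPHA1, EPHA2, EPHA4, EPHA7, EPHB3, EPHB4 and EPHB6 and the ligands EFNA1, EFNB1 and EFNB2. Each was found by its symbol in the annotation of the array platform and is represented by its brightest probe set, which makes them 10 of 19775 genes measured. Both are established lines of 1 patient with colon adenocarcinoma, SW480 grown from the primary tumour and SW620 from a metastasis in a lymph node, so each line stands for 1 tumour site of 1 patient. In each line a short hairpin RNA was directed at 1 of 6 genes: NGFR, HRAS, the kinases MAP2K1, MAP2K2 and MAPK3, or CDK5. An empty vector and a non-target hairpin are the vector controls, and non-transduced cells are the third control. The series holds 101 arrays in 18 groups: 15 groups have 6 arrays, the CDK5 knockdown in SW620 has 5, and the non-transduced cells have 3 in each line. The study asked which genes respond when a RAS pathway gene is silenced, and used the answers to judge an inferred gene network. The promoter driving the hairpins is not given in the sources used here.

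EPH receptors are the largest family of receptor tyrosine kinases, and their ligands, the ephrins, are held in the membrane of the neighbouring cell. A-class ephrins are attached by a lipid anchor and mostly bind EPHA receptors, B-class ephrins span the membrane and mostly bind EPHB receptors, and EPHA4 binds both classes. Contact between cells signals in both directions, into the receptor cell (forward) and into the ephrin cell (reverse). In the intestinal crypt EPHB receptors and B-class ephrins lie in opposing gradients that sort cells along the crypt axis, and EPHB genes are known targets of Wnt signalling.

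The values are log2 expression levels on the RMA scale (a standard summary of Affymetrix probe sets), so a difference of 1 is a 2-fold difference. They come from bulk RNA, in which fewer expressing cells and less RNA per cell cannot be told apart. Arrays fall into label series by how their names are written: replicate 1, replicate 2, replicates 3 to 6, and a non-transduced array called replicate 7. The levels of several of the 10 genes differed between these series, so the model had a term for series in each line, and values within each series are given beside the results. The labels call the arrays biological replicates but do not say how replicates 3 to 6 were cultured. Their spread was mostly small, so p-values may measure partly technical spread. In the HRAS knockdown of SW480 replicates 3 and 4 differed from 5 and 6, with EPHB4 at 8.31 and 8.22 against 7.84 and 7.63. A change was called when its limma p-value, adjusted by Benjamini-Hochberg over 19775 genes, was under 0.05. The 6 knockdowns of a line share its 12 vector control arrays, so their results are not independent of each other. Below, controls means these vector controls unless non-transduced cells are named.

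Array medians lay between 5.05 and 5.28. Of 10 colon epithelium markers 9 were above the median of the arrays, from CDH17 at 4.39 to KRT18 at 13.6, while 1 of 4 leukocyte, 3 of 5 fibroblast and 2 of 5 endothelial markers were. By median level over all arrays the leukocyte markers ran from PTPRC at 3.88 to LYZ at 5.66 and the fibroblast markers from COL3A1 at 3.96 to COL1A1 at 7.00. The endothelial markers ran from CDH5 at 3.73 to PECAM1 at 5.97. The hairpins lowered their own target past the threshold in 11 of 12 comparisons. NGFR in SW620, where its vector control level averaged 5.09, changed by -0.52 ± 0.26 (SE; adjusted p = 0.136), and MAPK3 kept 80.2% of its control level in SW480 and 66.4% in SW620. Results given for NGFR in SW620, and its differences between lines, are therefore those of a hairpin whose target change did not pass there. On 3 SW620 arrays (MAP2K1 knockdown replicate 2, MAPK3 knockdown replicate 2 and NGFR knockdown replicate 1) the GAPDH probe set at the 3' end exceeded that at the 5' end by over 2, a sign of degraded RNA. In the HRAS knockdown of SW480 this GAPDH excess was 1.39 and 1.47 in replicates 3 and 4, against 0.41 and 0.32 in replicates 5 and 6. The first replicates of the MAP2K1, MAP2K2 and MAPK3 knockdowns labelled SW480 carried raised levels of genes that are high in SW620.

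EFNA1, EPHA4 and EPHA2 were the members that fell in most knockdowns of SW620, and their promoters are shown for that reason. RefSeq start sites matched for 10 of 10 members, with 13 windows of 250 bases before to 50 after the start (build GRCh38.p14). Both strands were searched for AP-1 (TGANTCA), CRE (TGACGTCA), TCF/LEF (CTTTGA), ETS (CCGGAAG), KLF/SP (GGGCGG) and E-box (CACGTG) letters, and capitals mark each match. The EFNA1 window is chr1:155127626-155127925 on the plus strand, the EPHA4 window is chr2:221572255-221572554 on the minus strand, and the EPHA2 window is chr1:16156020-16156319 on the minus strand. All are written 5' to 3' in the direction of transcription.
EFNA1: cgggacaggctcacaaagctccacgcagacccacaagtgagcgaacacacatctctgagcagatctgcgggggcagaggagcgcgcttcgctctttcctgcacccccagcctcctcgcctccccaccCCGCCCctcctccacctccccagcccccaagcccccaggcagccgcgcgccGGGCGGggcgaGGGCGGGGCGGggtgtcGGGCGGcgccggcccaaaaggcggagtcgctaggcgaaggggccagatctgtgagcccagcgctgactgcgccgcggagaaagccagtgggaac
EPHA4: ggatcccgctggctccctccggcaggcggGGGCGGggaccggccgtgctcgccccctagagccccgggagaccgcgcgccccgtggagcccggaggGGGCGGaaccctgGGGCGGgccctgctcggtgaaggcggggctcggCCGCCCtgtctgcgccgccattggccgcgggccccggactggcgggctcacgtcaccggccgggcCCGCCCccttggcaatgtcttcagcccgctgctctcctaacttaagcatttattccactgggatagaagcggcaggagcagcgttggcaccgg
EPHA2: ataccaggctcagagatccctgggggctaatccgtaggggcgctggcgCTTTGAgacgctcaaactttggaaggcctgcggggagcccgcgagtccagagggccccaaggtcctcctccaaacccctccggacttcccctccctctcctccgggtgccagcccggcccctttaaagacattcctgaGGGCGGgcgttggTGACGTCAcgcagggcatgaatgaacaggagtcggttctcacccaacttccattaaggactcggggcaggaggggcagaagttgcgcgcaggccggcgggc

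The EFNA1 window, with a GC content of 71.7%, held 5 KLF/SP matches, at -123, -72, -61, -56 and -44 from the start site, of which those at -61 and -56 share a base. The EPHA4 window, at 74.3% GC, also held 5. A second EPHA4 start site upstream, at chr2:221574153-221574452, has 43% GC and 1 match. EPHA2 held 1 KLF/SP match at -64, a CRE match at -51 and a TCF/LEF match at -202. KLF/SP letters occurred in each of the 13 member windows and in 45% of 35116 RefSeq promoters of this length. A pair of EPHA7 windows overlap and hold the same KLF/SP site. GC content was 43% to 78.7% in the member windows, above the median of all promoters (58.7%) in 10 of 13. CRE letters occurred in 1 of 13 windows and 1.85% of all promoters, and TCF/LEF letters in 1 of 13 and 12.9%. AP-1, ETS and E-box letters were found in 0 of 13 windows, against 7.71%, 10.3% and 7.26% of all promoters.

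**Figure D1:**
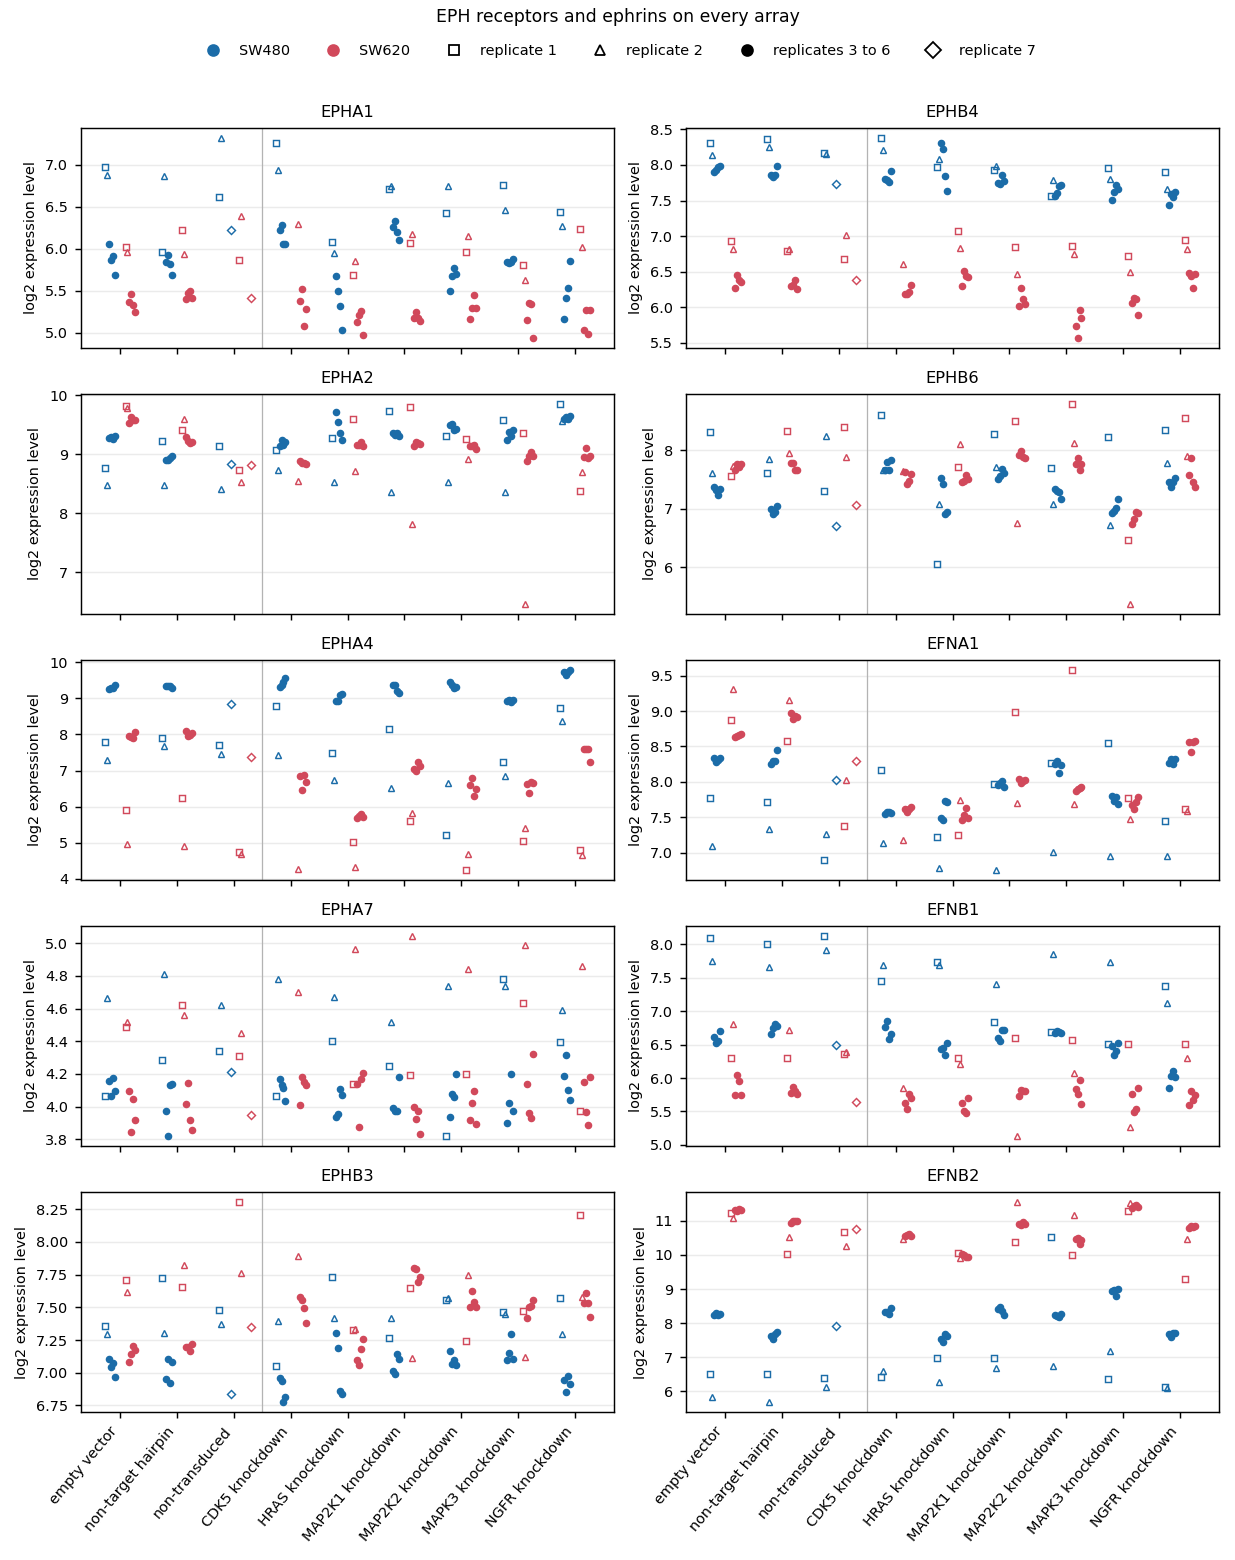
Log2 expression level of each of the 10 genes (vertical axes, which differ between panels) on each of 101 arrays, by treatment and cell line; squares, triangles, filled circles and diamonds mark the label series. EFNB2 is higher in SW620 on all but 1 SW480 array, and EPHA4 differs between label series as much as between treatments.

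The lines were first compared in their vector controls, 12 arrays in each. Of the 10 genes 9 differed, 5 higher in SW620 and 4 lower, where 48.6% of all genes were called. SW620 had more EFNB2, the transmembrane ligand of EPHB4, and less EPHB4. It also had less EPHA4 and EFNB1 and more EFNA1.

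EFNB2 ranged from 5.70 over a median of 7.65 to 8.29 in SW480 controls, and from 10.01 over 11.03 to 11.34 in SW620 controls. These ranges did not overlap, and the difference of 3.65 ± 0.18 (SE; 12.5-fold; adjusted p = 2.53e-31) ranked 74th by size of 19775 genes. Within the label series it was 4.10, 5.03 and 3.19, and the second EFNB2 probe set gave 3.54 ± 0.23. EPHB4, by contrast, ran from 7.84 to 8.37 in SW480 and from 6.25 to 6.93 in SW620, again without overlap. It was 2.88-fold lower in SW620 (-1.53 ± 0.06; adjusted p = 1.74e-38), with -1.48, -1.38 and -1.58 in the 3 series. Its second probe set gave a smaller difference of -0.62 ± 0.06.

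EPHA4, the receptor of both ephrin classes, depended strongly on the series. In SW480 controls its lowest, median and highest levels were 7.30, 9.28 and 9.36, and in SW620 controls 4.91, 7.94 and 8.09. Replicates 3 to 6 lay between 7.89 and 8.09 in SW620 while replicates 1 and 2 lay between 4.91 and 6.24, so the ranges of the lines overlapped across series but in no series. The fitted difference was -1.60 ± 0.17 (adjusted p = 3.67e-14), and 3 of the other 4 EPHA4 probe sets were also lower in SW620, by -0.71 to -1.20. The fourth, at a mean level of 3.88, gave -0.08.

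EFNB1, a B-class ligand, was lower in SW620 by -1.01 ± 0.11 (adjusted p = 9.27e-14), with medians of 6.76 and 5.91. EFNA1, an A-class ligand first described as induced by tumour necrosis factor, was higher in SW620 by 0.81 ± 0.13 (adjusted p = 1.98e-07). Its SW480 controls spanned 7.09 to 8.46 and its SW620 controls 8.57 to 9.31, without overlap. The non-transduced arrays did overlap, at 6.90 to 8.02 in SW480 and 7.38 to 8.29 in SW620.

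Smaller differences were found for 4 further receptors. EPHA1 was lower in SW620 by -0.51 ± 0.08, but its second probe set was higher there by 0.27 ± 0.08, so the direction for EPHA1 differed between its probe sets. EPHA2 was higher by 0.51 ± 0.13, EPHB6 by 0.40 ± 0.14 and EPHB3 by 0.19 ± 0.07. The EPHA2 difference did not pass with the non-target hairpin as sole control or with replicates 1 and 2 alone. Its non-transduced arrays overlapped, at 8.41 to 9.15 in SW480 and 8.52 to 8.81 in SW620. The EPHB6 difference lay in replicates 3 to 6 (0.58), with -0.01 and 0.11 in the other series. EPHA7 had a mean level of 4.21, at the 16.1th percentile of the 19775 genes, and differed by -0.03 (95% interval -0.16 to 0.10). Among markers of other cell types, 4 of 5 fibroblast markers were higher in SW620 as well, with LUM at 3.22 in SW480 and 8.61 in SW620, and the part of this in the differences was not tested.

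**Figure D2:**
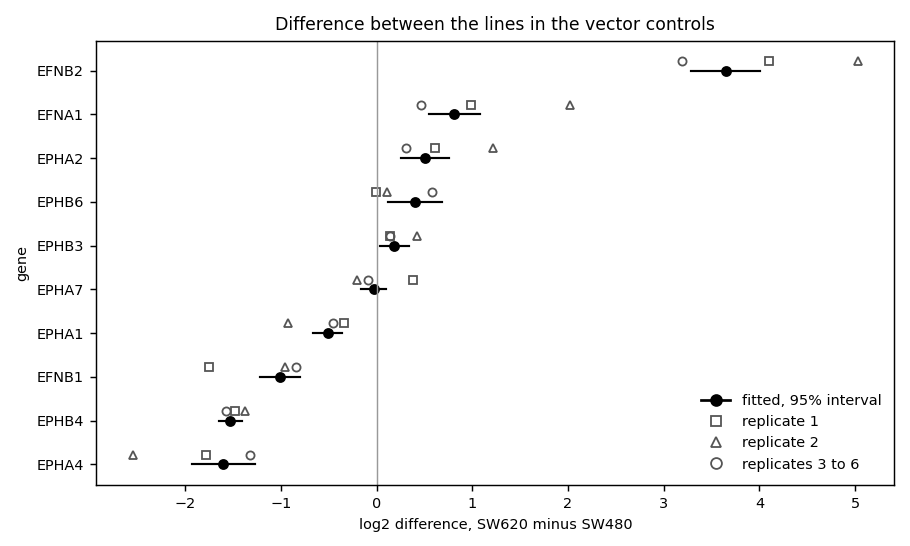
Difference between SW620 and SW480 in the vector controls (horizontal axis, log2) for the 10 genes; filled circles and bars are the fitted value and its 95% interval, open symbols the difference within each label series. EFNB2 lies at 3.65, EPHB4 at -1.53 and EPHA4 at -1.60, each with the same sign in the 3 series.

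Knockdowns changed more of these genes in SW620 than in SW480, mostly downwards. In SW620, 26 of 60 pairs of gene and knockdown were called, 23 lower and 3 higher, where 25.6% of all gene and knockdown pairs were. In SW480 the count was 13 of 60, 5 higher and 8 lower, where 13.4% of all pairs were. A test of the difference between lines called 22 of 60 pairs, where 16.2% of all pairs were called. The counts for SW620, SW480 and the difference were 11, 1 and 3 when label series had no term in the model, and 12, 7 and 4 with replicates 3 to 6 averaged in pairs by the ending of their names. Leaving out replicate 3 gave 17, 10 and 10, leaving out any one of replicates 4 to 6 also gave 10 for the difference, and leaving out replicate 2 gave 20 for SW480.

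In SW620 the MAPK3 knockdown lowered 7 of the 10 genes and raised 0 (29.8% of all genes called). This count, and the MAPK3 median given below, include replicate 2, an array of degraded RNA. Without the arrays of degraded RNA the falls of EPHA1 and EFNB1 with MAPK3 did not pass. The HRAS knockdown lowered 4 and raised 0 (31% of all genes), and the MAP2K2 knockdown lowered 3 and raised 0 (23.2%). The CDK5 (24% of all genes), MAP2K1 (19.1%) and NGFR (26.3%) knockdowns each lowered 3 and raised 1. For HRAS and MAP2K2 the numbers called, 4 and 3 of 10, were within 1 gene of the background. The median change of the 10 genes was -0.30 in the MAPK3 knockdown, -0.26 in HRAS and between -0.23 and -0.14 in the others, while the median over all genes lay between -0.01 and 0.01.

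In SW480 the NGFR knockdown changed 5 genes, 2 upwards and 3 downwards (24% of all genes called). The MAPK3 knockdown changed 3 (10.7%), HRAS 2 (26.2%), MAP2K2 2 (5.17%) and CDK5 1 (8.06%). The MAP2K1 knockdown changed 0 of 10 in limma (6.54%), with 5 at an unadjusted p under 0.05.

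**Figure D3:**
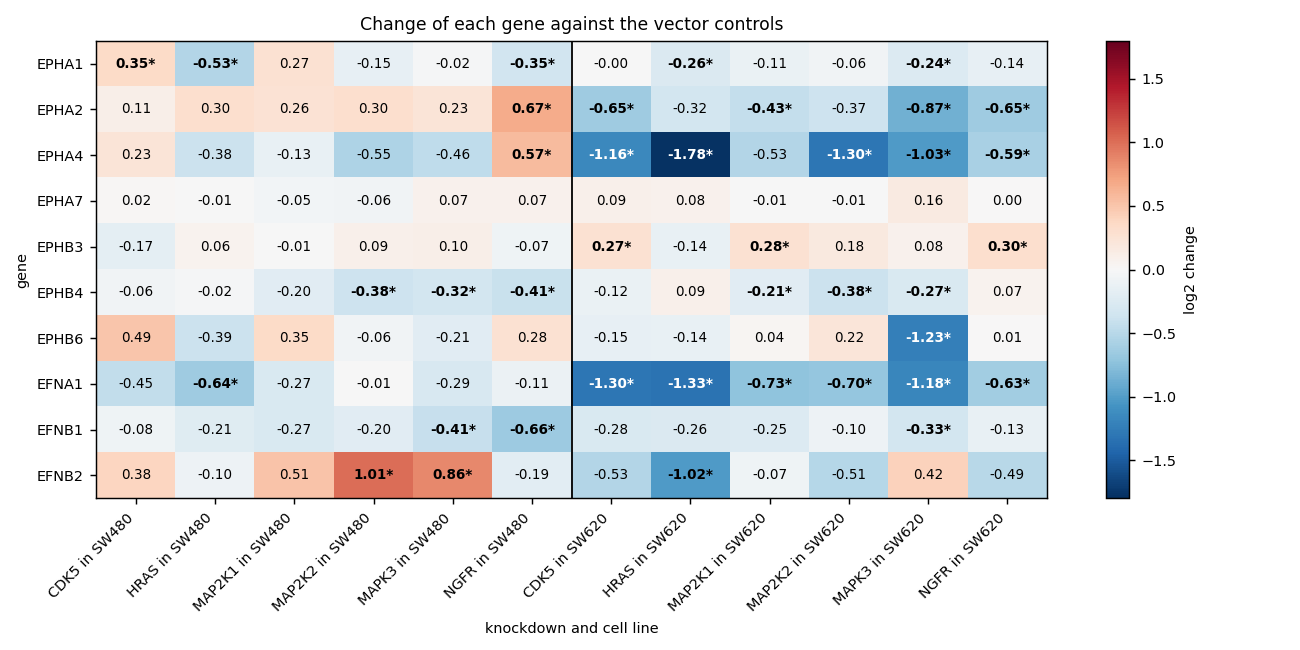
Fitted log2 change of each gene (rows) in each knockdown (columns) against the vector controls of the same line; colour and number give the change, and bold numbers with an asterisk passed an adjusted p of 0.05. The SW620 columns of EFNA1, EPHA4 and EPHA2 hold the run of falls, and 2 of the 5 rises in SW480 are those of EFNB2.

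EPHA4 fell in 5 of the 6 SW620 knockdowns, where 5.65% of all genes were called lower in 5 or more. With the HRAS knockdown its levels were 4.33 at the lowest, 5.69 at the median and 5.79 at the highest, against 4.91, 7.94 and 8.09 in the 12 controls. Each of the 6 arrays was below the control mean of its own series, although the ranges overlapped across series. The change was -1.78 ± 0.20 (3.44-fold lower; adjusted p = 2.03e-11), made up of -1.06, -0.60 and -2.26 in replicate 1, replicate 2 and replicates 3 to 6. In the HRAS knockdown of SW620, 6 of 10 colon epithelium markers fell as well (median -0.68), and the part of this in the result was not tested.

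The other EPHA4 falls in SW620 were -1.30 ± 0.20 with MAP2K2 (adjusted p = 6.25e-07), -1.16 ± 0.22 with CDK5 (2.38e-05), -1.03 ± 0.20 with MAPK3 (4.27e-05) and -0.59 ± 0.20 with NGFR (0.0239). MAP2K1 gave -0.53 ± 0.20 and missed the threshold (0.0575). Replicate 2 went the other way with MAPK3 (0.48) and MAP2K1 (0.88), and both of these are arrays with signs of degraded RNA. Without the arrays of degraded RNA the NGFR change was -0.44 (adjusted p = 0.102). The next 2 EPHA4 probe sets by level fell in SW620 with HRAS (-1.35 and -1.46), MAPK3 (-0.90 and -1.21) and CDK5, and both also passed with MAP2K1 (-0.81 and -0.75).

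In SW480 EPHA4 rose with the NGFR knockdown, by 0.57 ± 0.20 (adjusted p = 0.031), from control levels of 7.30 to 9.36 to levels of 8.37 to 9.79. The rise was 0.89, 0.88 and 0.41 in the series, and 3 of the other 4 probe sets rose by 0.82 to 1.23. With the brightest probe set it missed the threshold without replicate 2 (0.50; adjusted p = 0.0552). The difference between the lines passed for HRAS (-1.40 ± 0.29), CDK5 (-1.39 ± 0.30) and NGFR (-1.15 ± 0.29). With MAP2K2 in SW480 the fit gave -0.55 (adjusted p = 0.0993), and replicate 1, one of the arrays with genes of SW620, stood at 5.21 while replicates 3 to 6 lay between 9.28 and 9.44.

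EPHA2 is a receptor often raised in carcinomas and a known target of RAS and MAP kinase signalling. It fell in 4 SW620 knockdowns, where 8.92% of all genes were called lower in 4 or more. Its change also differed between the lines in each of the 6, and those with MAPK3 and NGFR kept their call with either vector control alone and whichever replicate number was left out. SW620 controls spanned 9.19 to 9.82 with a median of 9.55. The CDK5 knockdown spanned 8.55 to 8.89, below every vector control, with a change of -0.65 ± 0.17 (adjusted p = 0.0022). Against the non-target hairpin alone it was -0.48 (0.0669), and with arrays averaged in pairs -0.69 (0.116). The NGFR knockdown spanned 8.37 to 9.10, also below every vector control (-0.65 ± 0.16; adjusted p = 0.000946). Both groups overlapped the non-transduced arrays of SW620, which spanned 8.52 to 8.81. The MAPK3 change of -0.87 ± 0.16 (adjusted p = 6.98e-06) rested partly on replicate 2, which stood at 6.47 while the other 5 arrays lay between 8.89 and 9.36. Within the series it was -0.25, -3.22 and -0.44, and without replicate 2 it was -0.40 (adjusted p = 0.000265). The MAP2K1 change of -0.43 ± 0.16 (adjusted p = 0.0417) was -0.14 without replicate 2 (adjusted p = 0.318), an array of degraded RNA, and -0.20 without all such arrays (0.108).

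In SW480 the 6 EPHA2 changes were between 0.11 and 0.67, and that with NGFR passed (0.67 ± 0.16; adjusted p = 0.000504). Those arrays spanned 9.56 to 9.85, above each of the 12 controls, which ended at 9.32. SW620 minus SW480 changes were -1.32 ± 0.22 for NGFR (23.7% of all genes called), -1.10 ± 0.22 for MAPK3 (17%), -0.75 ± 0.23 for CDK5 (15.6%) and -0.69 ± 0.22 for MAP2K1 (11.5%). They were -0.67 ± 0.22 for MAP2K2 (10.4%) and -0.62 ± 0.22 for HRAS (18.9%). Over the 10 genes, differences between lines were called 5 times each for NGFR and CDK5, 4 times for HRAS, 3 times each for MAPK3 and MAP2K2, and 2 times for MAP2K1. Against the non-target hairpin alone the differences for CDK5 (-0.67; adjusted p = 0.095), HRAS (-0.53; 0.187), MAP2K1 (-0.60; 0.16) and MAP2K2 (-0.58; 0.189) did not pass, nor did these 4 without any one of replicates 3 to 6 or with arrays averaged in pairs. That for MAP2K1 also lost its call without the SW480 arrays that carry genes of SW620 (-0.60; 0.0802).

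**Figure D4:**
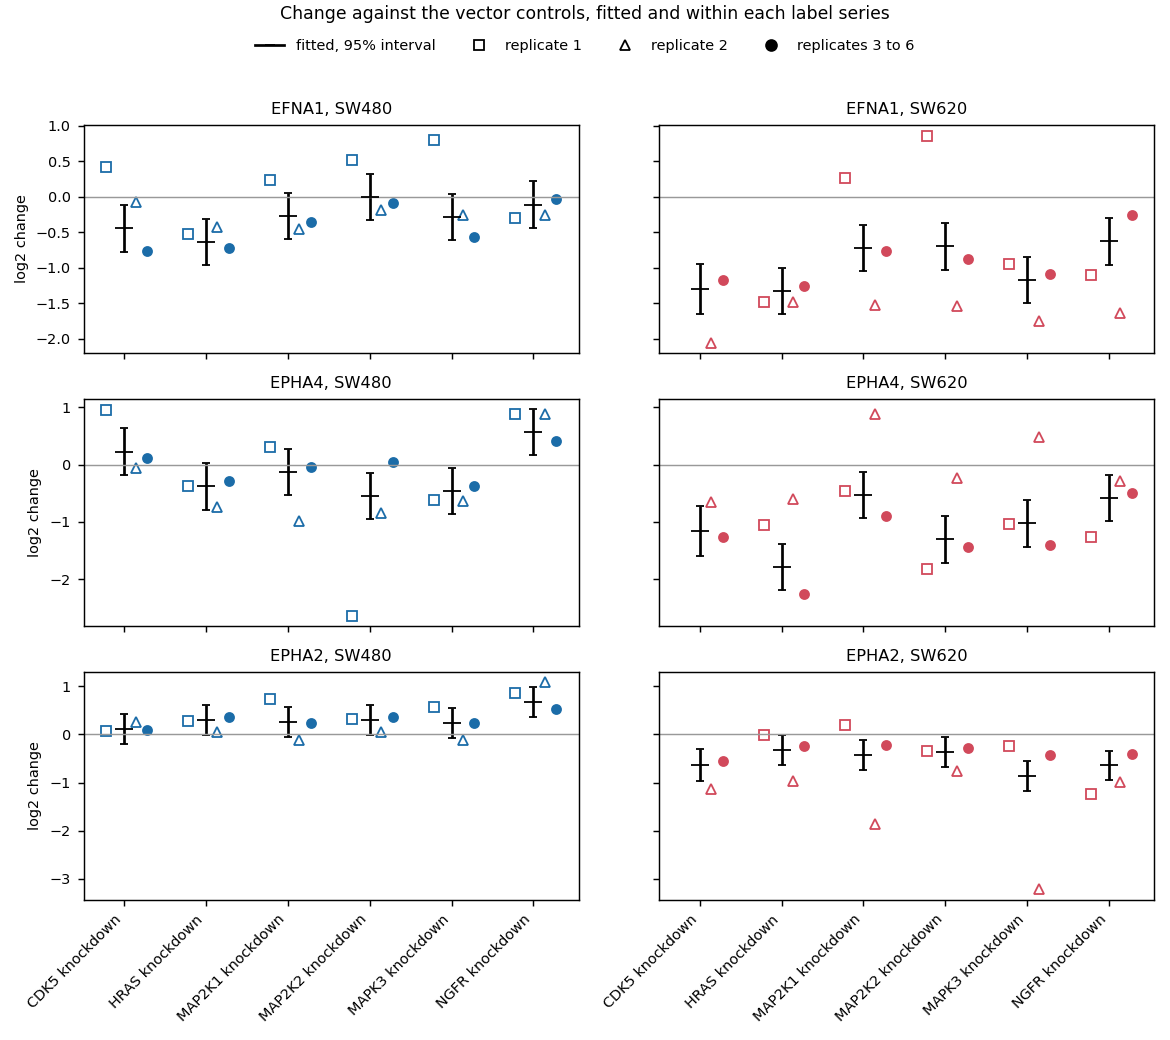
Log2 change of EFNA1, EPHA4 and EPHA2 against the vector controls in SW480 (left) and SW620 (right) for each knockdown; bars are fitted values with 95% intervals, and symbols the change within each label series. In SW620 the EFNA1 changes of replicates 3 to 6 lie between -1.26 and -0.26, while replicate 1 lies above 0 for MAP2K1 and MAP2K2.

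EPHA1, the first receptor of the family to be cloned, changed little in SW620, where HRAS (-0.26 ± 0.10; adjusted p = 0.0265) and MAPK3 (-0.24 ± 0.10; 0.0461) passed narrowly. In SW480 it fell with HRAS by -0.53 ± 0.10 (adjusted p = 5.6e-06), from control levels of 5.69 to 6.98 to levels of 5.03 to 6.08, with -0.39, -0.92 and -0.47 in the series. It also fell with NGFR (-0.35 ± 0.10; adjusted p = 0.00347) and rose with CDK5 (0.35 ± 0.10; 0.011). The second EPHA1 probe set moved the other way with HRAS in SW480 (0.32 ± 0.09), and the third fell (-0.17 ± 0.06). With the mean of the probe sets in place of the brightest, the SW480 changes were -0.13 with HRAS (adjusted p = 0.0588), 0.14 with CDK5 (0.0771) and -0.11 with NGFR (0.124), and none passed. The MAPK3 change in SW620 was -0.18 (adjusted p = 0.173) without the arrays of degraded RNA. MAP2K1 changed EPHA1 differently in the lines, by -0.38 ± 0.13 (adjusted p = 0.0485), although neither line's own change passed. EPHA7, a receptor best known from the developing nervous system, was called in 0 of 12 knockdown comparisons in limma, with changes from -0.06 to 0.16 and 1 at an unadjusted p under 0.05.

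Among the B-class receptors, EPHB6 stood out in 1 knockdown. This receptor lacks kinase activity. In SW620 controls it spanned 7.56 to 8.34 with a median of 7.75. With the MAPK3 knockdown the 6 arrays read 5.38, 6.47, 6.75, 6.82, 6.93 and 6.94, all below the controls. The change was -1.23 ± 0.18 (2.35-fold lower; adjusted p = 2.79e-08), with -1.48, -2.46 and -0.86 in the series. The lowest array is replicate 2, which has degraded RNA, and without such arrays the change was -0.97 (adjusted p = 7.96e-07). The other 5 SW620 knockdowns gave changes from -0.15 to 0.22, and MAPK3 in SW480 gave -0.21 ± 0.18. The difference between the lines was -1.02 ± 0.25 (adjusted p = 0.00187).

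EPHB4, the receptor of EFNB2 in vessel formation, fell by small amounts in both lines. In SW480 it fell with NGFR (-0.41 ± 0.07; adjusted p = 8.42e-06), MAP2K2 (-0.38 ± 0.07; 0.000308) and MAPK3 (-0.32 ± 0.07; 0.00103). Of all genes 3.56% were called lower in 3 or more SW480 knockdowns. MAP2K2 knockdown arrays spanned 7.56 to 7.79, below each vector control, which began at 7.84. EPHB4 in the SW480 non-transduced arrays spanned 7.73 to 8.16, which overlaps them. In SW620 it fell with MAP2K2 (-0.38 ± 0.07; adjusted p = 4.6e-05), MAPK3 (-0.27 ± 0.07; 0.00282) and MAP2K1 (-0.21 ± 0.07; 0.0347). The SW620 fall with MAP2K2 lay in replicates 3 to 6 (-0.56), with 0.00 and -0.07 in the other series. The second EPHB4 probe set gave -0.18, -0.08 and -0.18 in the same 3 SW620 comparisons and passed in none of them. In SW480 it passed with NGFR (-0.28 ± 0.07) but not with MAP2K2 (-0.19) or MAPK3 (-0.17). The MAP2K1 change in SW620 was -0.17 (adjusted p = 0.113) without the arrays of degraded RNA. The NGFR hairpin changed EPHB4 differently in the lines, by 0.47 ± 0.10 (adjusted p = 0.000312), since SW620 gave 0.07.

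EPHB3, a receptor of the crypt base, was the member that rose in SW620, with NGFR (0.30 ± 0.09; adjusted p = 0.00906), MAP2K1 (0.28 ± 0.09; 0.019) and CDK5 (0.27 ± 0.10; 0.0327). Of all genes 11% were called higher in 3 or more SW620 knockdowns. EPHB3 levels in the vector controls were 7.08 to 7.82, and the ranges overlapped in each case. With MAP2K1 the rise was in replicates 3 to 6 (0.58), while replicates 1 and 2 gave -0.04 and -0.61. The second EPHB3 probe set gave 0.04, 0.13 and 0.29 in these comparisons, and none passed. In SW480 it was called in 0 of 6 knockdowns in limma, with changes of -0.17 to 0.10 and 0 at an unadjusted p under 0.05, and the lines differed for CDK5 (0.44 ± 0.13; adjusted p = 0.0148) and NGFR (0.37 ± 0.13; 0.026).

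Of the ligands, EFNA1 fell in each of the 6 SW620 knockdowns, where 2.67% of all genes were called lower in all 6. Controls spanned 8.57 to 9.31 with a median of 8.88. With the HRAS knockdown the lowest, median and highest levels were 7.24, 7.52 and 7.75, with MAPK3 7.48, 7.69 and 7.78, and with CDK5 7.18, 7.61 and 7.65. These 3 groups lay below each vector control array but overlapped the non-transduced arrays, which spanned 7.38 to 8.29. The changes of the 3 groups against the vector controls were -1.33 ± 0.16 (2.52-fold lower; adjusted p = 2.84e-10), -1.18 ± 0.16 (1.71e-08) and -1.30 ± 0.18 (1.27e-08).

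The other knockdowns moved EFNA1 less. MAP2K1 gave -0.73 ± 0.16 (adjusted p = 0.000593), MAP2K2 -0.70 ± 0.16 (0.000735) and NGFR -0.63 ± 0.16 (0.00231). With arrays averaged in pairs MAP2K1 (-0.70; adjusted p = 0.0835) and MAP2K2 (-0.61; 0.139) did not pass, and NGFR did not without the series term (0.0754). With MAP2K1 and MAP2K2 replicate 1 went the other way, by 0.27 and 0.86, and stood at 8.99 and 9.58, among or above the controls. With NGFR the fall was -1.10 and -1.64 in replicates 1 and 2 and -0.26 in replicates 3 to 6, and the groups did not overlap, although the highest knockdown array and the lowest control both round to 8.57. By size of change the order was HRAS, CDK5, MAPK3, MAP2K1, MAP2K2 and NGFR. The SEs of the first 3 and of the last 3 exceed the steps between neighbours within each.

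In SW480 EFNA1 fell with HRAS, by -0.64 ± 0.16 (adjusted p = 0.00166), and the other 5 changes of -0.45 to -0.01 did not pass. Within replicates 3 to 6, however, CDK5 arrays (7.54 to 7.57) and MAPK3 arrays (7.7 to 7.8) lay below the controls (8.26 to 8.46). Replicate 1 stood at 8.16 with CDK5 and at 8.54 with MAPK3, the latter an array with genes of SW620. The fitted fall was larger in SW620 for MAPK3 (-0.89 ± 0.23), CDK5 (-0.86 ± 0.24), HRAS and MAP2K2 (both -0.69 ± 0.23). Over the 21 alternatives the difference ranged from -1.62 to -0.53 for MAPK3 and from -1.89 to -0.42 for CDK5. For MAP2K2 the difference lost its call without the SW480 arrays carrying genes of SW620 (-0.60; adjusted p = 0.0751). MAP2K1 (-0.45) and NGFR (-0.52) did not pass.

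EFNB2 fell in 1 SW620 knockdown and rose in 2 SW480 knockdowns. In SW620 it fell with HRAS, from 10.01 to 11.34 in the controls to 9.89 to 10.04, by -1.02 ± 0.22 (adjusted p = 0.000149), with -0.58, -0.91 and -1.16 in the series. The ranges overlapped at their edge, and the second probe set fell by -1.27 ± 0.28. In SW480 it rose with MAP2K2 (1.01 ± 0.22; adjusted p = 0.00175) and MAPK3 (0.86 ± 0.22; 0.00461). The size of the MAP2K2 rise depended on 1 array: replicate 1 stood at 10.51, in the range of SW620, against 6.74 in replicate 2 and 8.17 to 8.28 in replicates 3 to 6. Without the arrays that carry genes of SW620 it was 0.40 ± 0.13 (adjusted p = 0.0742), and without all first replicates 0.41 ± 0.10 (0.00268). Against the empty vector alone it was 0.79 ± 0.26 and did not pass (0.0686). The MAPK3 rise was 1.41 in replicate 2 and 0.98 in replicates 3 to 6, whose arrays read 8.80 to 9.01 against 7.54 to 8.29 in the controls of that series, and -0.15 in replicate 1. It was 0.64 against the empty vector alone (adjusted p = 0.121) and 0.80 with arrays averaged in pairs (0.247), and neither passed. The second probe set gave 1.03 ± 0.28 with MAP2K2, which passed, and 0.73 ± 0.28 with MAPK3, which did not. Differences between the lines passed for MAP2K2 (-1.52 ± 0.32), HRAS (-0.93 ± 0.32) and CDK5 (-0.91 ± 0.33). That for MAP2K2 includes the SW480 array at 10.51. It ranged from -2.60 to -0.90 over the alternatives, and 18 of 21 kept its call. Those for HRAS and CDK5 did not pass against either vector control alone, nor without any one of replicates 2 to 6. For CDK5 neither line's own EFNB2 change passed.

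EFNB1 fell in SW480 with NGFR, by -0.66 ± 0.13 (adjusted p = 4.45e-05), and the fall was nearly equal in the series at -0.67, -0.59 and -0.68. The arrays spanned 5.86 to 7.38, with controls from 6.53 to 8.09. It also fell with MAPK3 in SW480 (-0.41 ± 0.13; adjusted p = 0.0266), where replicate 1, an array with genes of SW620, gave -1.55, and without such arrays the change was -0.21 (adjusted p = 0.278). In SW620 the MAPK3 fall of -0.33 ± 0.13 (adjusted p = 0.0459) became -0.16 (0.349) without the arrays of degraded RNA. The NGFR hairpin changed EFNB1 differently in the lines, by 0.53 ± 0.19 (adjusted p = 0.0274).

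Some calls were lost when all arrays of 1 replicate number were left out, with the direction kept in each case. In SW480 these were EPHA4 with NGFR and EFNB1 with MAPK3 (5 of 6 replicate numbers each), EPHA1 with CDK5 (replicates 4 and 6) and EPHA1 with NGFR (replicate 3). In SW620 they were EPHA2 and EPHB4 with MAP2K1 and EPHA1 with MAPK3 (replicates 2 to 6 each), EPHA1 with HRAS and EPHB3 with MAP2K1 or CDK5 (replicates 3 to 6 each), EFNB1 with MAPK3 (replicates 2 to 5), EPHA4 with NGFR (replicates 3, 5 and 6) and EPHB3 with NGFR (replicates 3 and 4). The same held for 13 of the 22 differences between lines, for the line differences of EPHB3 and EPHB6, and for EPHA4 and EPHB3 between vector and non-transduced SW620 cells. The falls of EFNA1 in the 6 SW620 knockdowns, of EPHA4 with HRAS, MAP2K2, CDK5 and MAPK3, and of EPHB6 with MAPK3 passed whichever replicate number was left out. Over all comparisons 22 of 73 calls were kept without the series term, 30 with arrays averaged in pairs, 54 against the empty vector alone and 51 against the non-target hairpin alone. The knockdown calls that passed under each of these 4 settings were, in SW620, EFNA1 with HRAS, CDK5 and MAPK3, EPHA4 and EFNB2 with HRAS, EPHA2 with MAPK3 and NGFR and EPHB6 with MAPK3, and in SW480 EPHA2 with NGFR.

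The controls were compared with each other to show the background. Non-target hairpin and empty vector differed in 0 of 10 genes in either line in limma, with 0 and 1 at an unadjusted p under 0.05 in SW480 and SW620 (0.101% and 0.00506% of all genes called). The largest value was -0.52 ± 0.26 for EFNB2 in SW620, where the empty vector arrays spanned 11.07 to 11.34 and the non-target arrays 10.01 to 10.99 without overlap. With replicates 3 to 6 alone, 6 of 20 pairs of gene and line were called between the vector controls, where 10.6% of all pairs were. In SW480 these replicates read 8.24 to 8.29 for EFNB2 with the empty vector and 7.54 to 7.73 with the non-target hairpin.

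Vector controls of SW620 differed from non-transduced cells in 3 of 10 genes (5.88% of all genes called). The non-transduced side rests on replicates 1 and 2, while the vector side also draws on replicates 3 to 6 through the series term. EFNA1 stood at 7.38, 8.02 and 8.29 in the non-transduced arrays, below each vector control, and was higher with vector by 1.17 ± 0.26 (adjusted p = 0.00254). EPHA4 was higher with vector by 1.13 ± 0.32 (adjusted p = 0.0224), with 1.34 in replicate 1 and 0.24 in replicate 2. EPHB3 was lower by -0.57 ± 0.14 (adjusted p = 0.00865). In replicate 2 its non-transduced array stood at 7.76, between the vector controls at 7.61 and 7.82. Against the vector controls, the knockdown calls of EFNA1, EPHA4 and EPHB3 in SW620 went the other way, and a link was not tested. The EPHA4 difference lost its call without any one of replicates 3 to 6, and replicates 1 and 2 alone called 0 of 10 genes. Without replicate 1 the EPHB3 difference was -0.39 (adjusted p = 0.139). In SW480 the same contrast called 0 of 10 genes in limma, with 2 at an unadjusted p under 0.05 (0% of all genes called).

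Of the family's other members, 6 receptors and 5 ephrins were measured. EFNA2, a lipid-anchored ligand, was higher in SW620 (7.74 against 4.68 in the controls; 3.06 ± 0.17; adjusted p = 5.49e-29) and fell in each of its 6 knockdowns, from -0.64 with MAP2K2 to -2.36 with HRAS. Its other 2 probe sets, at mean levels of 4.19 and 3.98, gave line differences of -0.02 and 0.08, so the result rests on 1 probe set. EFNA4 was lower in SW620 by -2.16 ± 0.10, EFNB3 by -0.70 ± 0.17, EFNA5 by -0.43 ± 0.09 and EPHB1 by -0.14 ± 0.06. EFNB3 fell in 5 SW620 knockdowns, by -0.94 to -1.35, and EFNA3 in 4, by -0.29 to -0.38. EPHA10, a receptor without kinase activity, also fell in 5, by -0.30 to -0.66. Of all genes 2.67% were called lower in all 6 SW620 knockdowns, 5.65% in 5 or more and 8.92% in 4 or more. The 5 other ephrins had 3 members lower and 0 higher in each of the CDK5, HRAS, MAP2K1 and MAP2K2 knockdowns of SW620, 2 lower and 1 higher with MAPK3 and 1 lower and 1 higher with NGFR, where 19.1% to 31% of all genes were called. The 4 remaining receptors were each called in at most 1 knockdown comparison.

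The list of forward signalling genes, which act behind the receptors on the cytoskeleton, had 28 of 31 measured. In SW620 knockdowns between 1 and 5 of them rose and between 4 and 7 fell. In all 8 of 28 were called with MAPK3 (29.8% of all genes), 10 with HRAS (31%), 10 with CDK5 (24%), 7 with MAP2K1 (19.1%), 7 with NGFR (26.3%) and 6 with MAP2K2 (23.2%). NGEF, the exchange factor ephexin that binds EPHA4, was higher in SW620 by 2.02 ± 0.15 (adjusted p = 8.76e-22). It fell in each of the 6 SW620 knockdowns, by -1.98 ± 0.18 with HRAS and -0.77 ± 0.18 with NGFR, where 2.67% of all genes were lower in all 6. KALRN, an exchange factor for RAC1, fell with HRAS in both lines (-0.95 and -1.31). TIAM1, another RAC1 exchange factor, fell with HRAS in SW480 (-1.21 ± 0.17). WASL, an actin regulator, was lower in SW620 by -1.57 ± 0.10 and the kinase PTK2 higher by 1.31 ± 0.09.

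Reverse signalling genes were measured for 13 of 13. In SW620 5 fell with CDK5 (24% of all genes called), 5 with NGFR (26.3%), 4 with HRAS (31%), 3 with MAP2K2 (23.2%), 3 with MAPK3 (29.8%) and 0 with MAP2K1 (19.1%), and 1 rose, with MAPK3. PDZK1, a PDZ-domain scaffold, was higher in SW620 by 2.95 ± 0.16 and fell there with HRAS (-1.88 ± 0.20) and CDK5 (-1.41 ± 0.21). PTPN13, a phosphatase with PDZ domains, was higher by 1.36 ± 0.13 and fell with MAPK3 (-0.89 ± 0.16). STAT3, a transcription factor, rose with NGFR in SW480 (0.83 ± 0.17) and fell with it in SW620 (-0.81 ± 0.17), and the kinase YES1 was lower in SW620 by -1.35 ± 0.12.

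Of the genes that cleave EPH receptors and ephrins 12 of 13 were measured, and between 0 and 4 were called in each SW620 knockdown. In SW620 1 rose and 2 fell with CDK5 (24% of all genes called), 1 rose and 3 fell with HRAS (31%), and 2 rose and 2 fell with MAPK3 (29.8%). With NGFR 0 rose and 4 fell (26.3%), with MAP2K2 0 rose and 2 fell (23.2%), and with MAP2K1 0 were called (19.1%). ADAM10, the protease that sheds A-class ephrins, was higher in SW620 by 0.53 ± 0.07 and fell with NGFR in both lines, by -0.67 ± 0.09 in SW480 and -0.23 ± 0.09 in SW620. It rose in SW620 with MAPK3 (0.39 ± 0.09), CDK5 (0.32 ± 0.09) and HRAS (0.24 ± 0.09). NCSTN, a subunit of gamma-secretase, fell with MAPK3 in SW620 (-0.80 ± 0.08; adjusted p = 2.95e-14), and the metalloprotease MMP7 rose there (1.76 ± 0.17; 1.62e-13). ADAM19 and MMP2 were each lower in SW620 by -0.65.

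Over the 18 group means, each less the mean of its line, EPHA4 and EFNA1 varied together most among the 10 genes (Pearson r = 0.71, with 0.39 in SW480 and 0.82 in SW620). EPHA1 and EFNB1 (0.67), EPHB4 and EFNB1 (0.62) and EPHA2 and EFNA1 (0.57) followed. Among all genes the closest pattern to EPHA4 was that of MBTD1 (0.89), to EFNA1 that of SERTAD1 (0.90), to EPHA2 that of SEPTIN7P14 (0.91) and to EFNB2 that of WWTR1-AS1 (0.89). The closest were HDAC6 for EPHA1 (0.91), S1PR2 for EPHB4 (0.92), UBTF for EPHB6 (0.84) and KLLN for EFNB1 (0.90). For EPHB3 it was LINC02381 (0.84) and for EPHA7 GYS2 (0.83). These are the highest of 19775 values each, the group means share arrays of the same label series, and the non-transduced groups hold no replicates 3 to 6, so they are descriptions.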

How the data were processed

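Total RNA was hybridised to 101 Affymetrix arrays, 1 per sample, and the authors deposited log2 values of 54675 probe sets per array, made with RMA per the submitters' processing notes (no version is given, and whether the arrays were normalised together is not stated). The number of arrays limits the precision. Of the probe sets 41097 name 1 gene, 1801 several and 11777 none in the platform annotation. Symbols were updated through RefSeq gene IDs for 41043 and kept for 54. Each of 19775 genes was represented by its probe set with the highest mean over all arrays, and 0 value columns went unused.

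Groups were taken from the labels. One model per gene, with 18 groups and a term for label series within each line, was fitted with limma 3.58.1 (lmFit, then eBayes with trend and robust settings) in R 4.3.3. It gave 23 comparisons: each knockdown against the mean of both vector controls, the difference of that change between lines, the lines, and the controls. P-values were adjusted by Benjamini-Hochberg within each comparison, with a threshold of 0.05. In the non-transduced contrasts the non-transduced side rests on replicates 1 and 2, since replicate 7 has a series term of its own. Probe set values came from the same model over all probe sets.

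Replicates 1 and 2 are label series of their own, so the series term takes up what their arrays share. Among replicates 3 to 6, same-numbered arrays did not deviate together beyond that term (mean r from -0.11 to -0.08), and the numbers were not taken as pairs. The model was tested on simulated data in which each array varied independently. Spread shared by pairs, degraded RNA and arrays with genes of SW620 were not simulated. Of changes of 0.5, it recovered 71.6% for HRAS in SW480, 76.1% in SW620 and 40.3% for the difference between lines. False calls made up 2.48% to 10.2% of calls, the most between vector and non-transduced SW620 cells.

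Named were all 10 genes and the 6 targets. Other EPH receptors and ephrins were named when past the threshold between lines or in 3 or more knockdown comparisons, and from each pathway list the 3 largest called changes and the 3 largest line differences. The genes, lists and tests were chosen with earlier results of these data known. Alternatives changed the series term, the control, the probe set, the filter, the normalisation and the arrays used. EPHB2 was not analysed here.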

Additional observations from a re-analysis of the deposited data

Results flagged for a closer look

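In 37 of 160 pairs of gene and group with 5 or 6 arrays, 1 array stood apart from the others. The rule flags about 1 in 20 when all arrays share 1 distribution, but these groups mix label series, so that rate does not apply. Replicates 1 and 2 are single arrays beside the closely grouped replicates 3 to 6, so a flag may mark the level of a series and not an odd array. Of these arrays 28 were replicate 2, 9 replicate 1 and 0 replicates 3 to 6. For EPHA2 in SW480 they were replicate 2 of the CDK5 (8.74), MAP2K1 (8.37), MAP2K2 (8.53) and MAPK3 (8.35) knockdowns and replicate 1 of the NGFR knockdown (9.85). In SW620 they were replicate 2 of the CDK5 (8.55), MAP2K1 (7.82) and MAPK3 (6.47) knockdowns, of which the MAP2K1 and MAPK3 arrays have degraded RNA. For EPHA4 replicate 2 of the CDK5 knockdown stood apart in SW480 (7.43) and SW620 (4.28).

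For EPHA7 replicate 2 was the highest array with CDK5 (4.78) and the empty vector (4.67) in SW480, and with CDK5 (4.70), HRAS (4.97), MAP2K1 (5.04), MAP2K2 (4.84) and NGFR (4.86) in SW620. EPHA1 stood apart in replicate 2 of the non-target hairpin in SW480 (6.87). EPHB3 did so in SW620 in replicate 2 with MAP2K1 (7.11) and MAPK3 (7.12) and in replicate 1 with NGFR (8.21). EPHB6 was highest in replicate 1 of SW480 with CDK5 (8.61), the empty vector (8.31), MAP2K1 (8.28) and MAPK3 (8.22), and lowest in replicate 2 of SW620 with MAP2K1 (6.75) and MAPK3 (5.38).

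Among the ligands EFNA1 was lowest in replicate 2 of SW480 with MAP2K1 (6.76) and MAP2K2 (7.01) and of SW620 with CDK5 (7.18). It was highest in SW620 in replicate 2 of the empty vector (9.31) and in replicate 1 with MAP2K1 (8.99) and MAP2K2 (9.58). EFNB1 was highest in replicate 2 of SW480 with MAP2K1 (7.42), MAP2K2 (7.85) and MAPK3 (7.73). EFNB2 was lowest in replicate 1 of the NGFR knockdown in SW620 (9.28), an array of degraded RNA.

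The response differed between the lines, by a test of the difference in limma, in 22 of 60 pairs of gene and knockdown. As SW620 change minus SW480 change, EPHA2 gave -0.75 with CDK5, -0.62 with HRAS, -0.69 with MAP2K1, -0.67 with MAP2K2, -1.10 with MAPK3 and -1.32 with NGFR. EPHA4 gave -1.39 with CDK5, -1.40 with HRAS and -1.15 with NGFR. EFNA1 gave -0.86 with CDK5, -0.69 with HRAS, -0.69 with MAP2K2 and -0.89 with MAPK3. EFNB2 gave -0.91 with CDK5, -0.93 with HRAS and -1.52 with MAP2K2. EPHB3 gave 0.44 with CDK5 and 0.37 with NGFR. With NGFR EPHB4 gave 0.47 and EFNB1 0.53, EPHA1 gave -0.38 with MAP2K1, and EPHB6 gave -1.02 with MAPK3.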

How the results depend on the processing

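The main counts of called changes were 13 in SW480, 26 in SW620, 22 between lines in their response, 9 between lines in the controls, 3 between vector and non-transduced cells and 0 between the vector controls. Without the term for label series the counts were 1, 11, 3, 7, 0 and 0. Arrays averaged in pairs by name ending gave 7, 12, 4, 7, 0 and 0. Replicates 3 to 6 alone gave 32, 41, 39, 9 and, between the vector controls, 6, and no value against non-transduced cells. Replicates 1 and 2 alone gave 0, 1, 0, 6, 0 and 0. Fitting only the groups compared gave 25 in SW480 and 3 between the vector controls. The non-target hairpin as the sole control gave 14 differences between lines in response. Leaving out the degraded arrays gave 22 in SW480, and leaving out the SW480 arrays with genes of SW620 as well gave 23 there and 2 between the vector controls. Leaving out each replicate number in turn gave 10 to 20 in SW480, 17 to 37 in SW620, 10 to 30 between lines in response, 7 to 9 between lines, 2 to 4 against non-transduced cells and 0 to 1 between the vector controls. Where counts moved for other reasons than fewer arrays, the cause was not tested.

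With the replicate number as a block in place of label series the counts were 13, 23, 18, 9, 3 and 0, and 66 of 73 calls were kept, although the numbers of replicates 3 to 6 do not pair the samples. Of the 73 calls 7 were kept under all 21 alternatives: the line differences of EFNB2, EPHA4, EPHB4, EFNA1, EFNB1 and EPHA1, and the fall of EPHB6 with MAPK3 in SW620. A further 10, the EFNA1 falls with CDK5, HRAS and MAPK3 and the EPHA4 fall with HRAS in SW620 among them, were lost with replicates 1 and 2 alone and in no other alternative.

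Signs turned in 4 cases. With replicates 3 to 6 alone the difference between lines was -0.28 for EPHB6 with HRAS and 0.19 for EPHB3 with MAPK3. With replicates 1 and 2 alone EPHB3 changed by -0.32 with MAP2K1 in SW620, and the difference for EPHA1 with MAP2K1 was 0.026. Members near background, EPHA7 above all, have changes compressed by the RMA scale, and their lack of calls sets no limit on low-level expression.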
